A study of Mus musculus with 36 samples.

Results

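The miR-297, miR-466, miR-467 and miR-669 families, most of whose genes lie in an intron of the mouse gene Sfmbt2, were measured by small RNA sequencing in the ventral and lateral prostate lobes of male mice. Members were taken as the listed miRNAs whose names begin with 1 of these 4 family names and that had at least 1 read in any library. This gave 67 members of 1963 listed miRNAs, made up of 4 in the miR-297 family, 25 in miR-466, 13 in miR-467 and 25 in miR-669. A further 3 names, miR-466l-5p, miR-669k-3p and miR-669j, had no read. There were 5 members with 1 read each. The tissue came from C56NL/6N mice of 3 lines. The WT line was ELAC2+/+, the KO line had lost Elac2 in the prostate through Cre under the probasin (Pb) promoter, and the A537T line was homozygous in the whole body for an alanine to threonine change in the protein. The enzyme ELAC2 removes the 3′ trailer from immature transfer RNAs. All 3 lines were studied without TRAMP and as TRAMP +/- mice, in which the Pb promoter drives the SV40 T antigens in prostate epithelium, at 10 and at 30 weeks of age. This made 12 groups of 3 libraries, 36 in all, with littermates as the controls and with surrounding connective tissue dissected away from the lobes. The labels only number the replicates, and the study describes them as biological replicates from separate mice. The p-values measure the spread between these libraries.

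MicroRNAs are short RNAs that guide Argonaute proteins to messenger RNAs, mainly through the seed, bases 2 to 8 from the 5′ end. Each hairpin precursor can yield a mature miRNA from its 5′ arm (5p) and from its 3′ arm (3p). Sfmbt2 encodes a Polycomb protein and is an imprinted gene that is expressed from the paternal allele in the placenta and early embryo, where its large rodent-specific miRNA cluster is best known. The cluster arose by repeated duplication, so its members are near copies of each other and many mature miRNAs are encoded by several hairpins. Reads of such miRNAs cannot be assigned to a hairpin, and near-identical members may have been split or shared in counting, which makes the sum of a family more certain than any member.

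In the GENCODE M21 annotation of GRCm38, Sfmbt2 lies on the plus strand of chromosome 2 from 10370510 to 10595253. The annotation holds 81 hairpin loci of the 4 families, of which 71 lie within Sfmbt2. All 71 are on the plus strand, in intron 11 of the Sfmbt2 transcript with the most exons, which has 23 (chr2:10461473-10523944, 62472 bases). They run from 10466663 to 10518279 with a median of 298.5 bases between the starts of neighbours, and 0 of them overlap an exon of any Sfmbt2 transcript. Families alternate along the intron, with 29 loci of miR-669, 23 of miR-466, 14 of miR-467 and 5 of miR-297. The hairpin of miR-669c, the most abundant member, has 1 locus (chr2:10509296-10509404), whereas miR-467a has 10 and the mature miR-669pa-5p is named for 14. The other 10 loci are scattered over other chromosomes. By this annotation 53 members come only from Sfmbt2 and held 93.9% of the 29373 family reads, 5 members come from loci inside and outside and held 5.14%, and 9 come only from outside and held 0.987%.

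**Figure D1:**
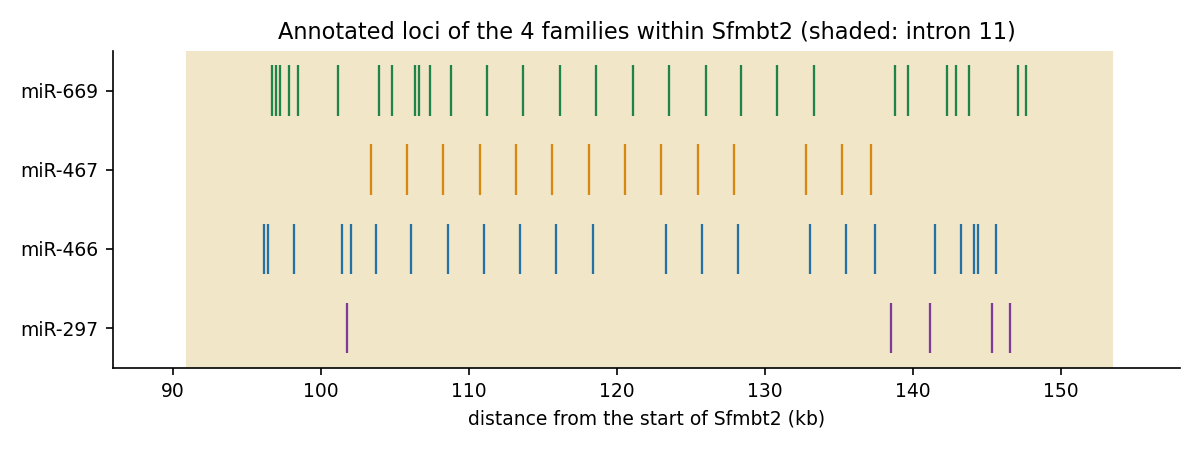
Each line marks 1 of the 71 annotated hairpin loci of the 4 families within Sfmbt2, with the distance from the start of the gene in kb on the x axis and 1 row per family. All loci fall within the shaded intron 11, and loci of miR-466, miR-467 and miR-669 alternate along it.

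The mature sequences of 8 of the 67 members were matched by name in RefSeq (GRCm38.p6). All 8 come from loci outside Sfmbt2, and they are shown because they make visible the alternating purine and pyrimidine repeats of the families and how their seeds differ. They are written 5′ to 3′ with the seed in capitals.
miR-466i-3p: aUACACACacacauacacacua
miR-466j: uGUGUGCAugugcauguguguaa
miR-466k: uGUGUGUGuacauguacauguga
miR-466q: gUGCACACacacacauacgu
miR-467f: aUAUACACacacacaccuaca
miR-467g: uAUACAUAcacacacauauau
miR-467h: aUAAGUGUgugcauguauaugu
miR-669n: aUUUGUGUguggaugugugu
Each of the 8 seeds occurred in 1 of these members. Steps from a base to the next that were CA, AC, UG or GU made up 50.0% of the sequence of miR-467g and 78.9% of that of miR-466q, the lowest and highest of the 8. The median over 1738 mature mouse miRNAs in the table was 28.6%, and 49 of them (2.82%) reached 50.0%. The best read of the 8 were miR-466i-3p (chr13:17747552-17747573, plus strand) with 99 reads over the 36 libraries and miR-466q (chr3:28419988-28420007, plus strand) with 94 reads. The other 6 had 1 to 16 reads each, with miR-466j at 16.

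Libraries held 4544257 to 21870210 miRNA reads, apart from library 35, of A537T mice at 10 weeks, with 655455. At 10 weeks depth differed with TRAMP. The libraries with TRAMP held 4544257 to 13014486 reads, and those without held 12422946 to 18574473 apart from library 35. Whether depth had a part in the TRAMP differences was not tested. Levels are given as RPM, the reads of a miRNA after each library was scaled to a sum of 1000000. In library 35, 1 read stood for 1.53 RPM, and the families were represented by 66 reads, with a 95% Wilson interval of 79.2 to 128 RPM that covers counting error only. The skeletal muscle miRNAs miR-1a, miR-133a, miR-133b, miR-206, miR-208b and miR-499 took 0.734% to 30.6% of reads in the 9 libraries of 10 weeks without TRAMP and 0.218% to 3.09% in those of 10 weeks with TRAMP. At 30 weeks they took at most 0.936%. The epithelial miRNAs miR-200a, miR-200b, miR-200c, miR-141, miR-429, miR-205, miR-203 and miR-375, which mark the labelled tissue, were read in every library and summed to 3.95% to 10.3% of reads. Messenger RNA of Elac2 was not sequenced here, so the deletion could not be checked in these libraries. By immunoblot the study found ELAC2 protein lost in KO prostates and reduced in A537T prostates. It checked both genotypes by Sanger sequencing of genomic DNA.

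The families were a small part of the prostate miRNA pool. Their 29373 reads were 0.00618% of all miRNA reads, and their summed level ran from 26.6 RPM to 106 RPM over the 36 libraries, with a median of 57.4 RPM. The miR-669 family held 51.8% of the family reads, miR-467 29.0%, miR-466 16.1% and miR-297 3.04%. The 29 members named as 5p held 69.4% of the reads, the 27 named as 3p held 28.9% and the 11 without an arm in the name held 1.67%.

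The most abundant member, miR-669c-5p, had 6619 reads and a mean of 14.2 RPM over the 36 libraries. It was followed by miR-467a-5p at 8.39 RPM, miR-669pa-5p at 6.25 RPM, miR-669ao-3p at 6.13 RPM and miR-467e-5p at 3.37 RPM. Next were miR-466d-3p at 2.20 RPM, miR-467a-3p at 2.08 RPM, miR-466bcp-3p at 1.86 RPM, miR-669o-5p at 1.47 RPM and miR-466f-3p at 1.41 RPM, and then miR-297abc-3p at 1.36 RPM, miR-467c-5p at 1.30 RPM and miR-467d-5p at 1.20 RPM. These 13, with a mean of at least 1 RPM, were tested among 514 miRNAs and held 84.5% of the family reads. The other 54 were too low to test. The nearest below the limit were miR-466c-5p at 0.978 RPM, miR-466h-5p at 0.898 RPM and miR-467b-5p at 0.875 RPM. In all, 14 members were read in every library.

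The arms of some hairpins were far from equal. The 3p partner of miR-669c-5p had 6 reads against 6619, that of miR-467e-5p had 21 reads against 1579, and the 5p partner of miR-466d-3p had 36 reads against 1144. Some rows had equal counts in every library. The rows of miR-466d-5p and miR-466n-5p had 36 reads each, and those of miR-669d-3p and miR-669d-2-3p had 4 each. The rows of miR-297c-5p and miR-467b-3p had 1 read each, in the same library, which does not show that a read was shared.

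**Figure D2:**
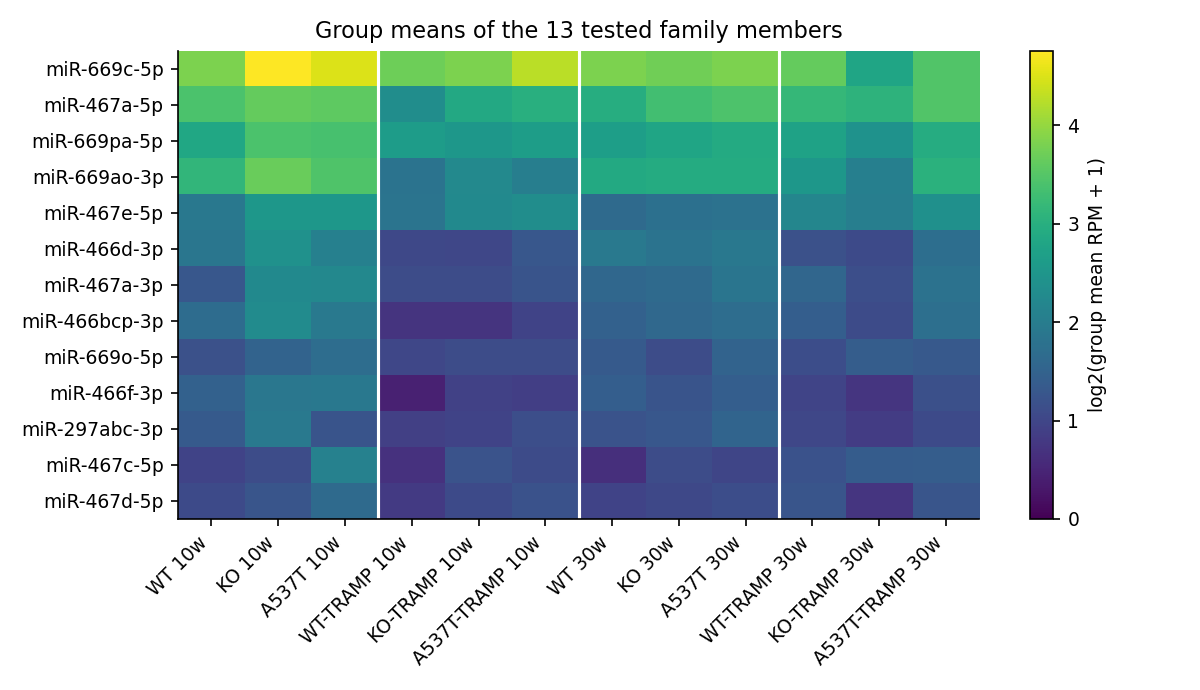
Colour gives log2(group mean RPM + 1) of the 13 tested members (rows, most abundant first) in the 12 groups (columns, 3 libraries each), with white lines between the blocks of age and TRAMP. The levels of miR-669c-5p, miR-467a-5p, miR-669pa-5p and miR-669ao-3p exceed the rest in most groups, and the 3p members are darker in the 10-week TRAMP groups than in the 10-week groups without TRAMP.

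The TRAMP comparison at 10 weeks asked how the families differed between prostate that expressed the T antigens and prostate that did not, over the 3 Elac2 lines. The families were lower in TRAMP prostate. Without TRAMP the summed level of the 9 libraries ran from 26.6 RPM through a median of 99.3 RPM to 106 RPM, and with TRAMP it ran from 27.2 RPM through 41.7 RPM to 69.7 RPM. Apart from the WT libraries 29, at 52.1 RPM, and 30, at 26.6 RPM, all libraries without TRAMP lay above all those with TRAMP. The difference in the means of log2(RPM + 1) was -0.81 ± 0.26 (SE, 9 against 9 libraries), a fold of 0.569. Fewer cells of a type and less RNA per cell cannot be told apart in such bulk samples.

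By line, the KO libraries had 99.9, 99.3 and 102 RPM without TRAMP and 27.2, 63.8 and 50.3 RPM with TRAMP, a log2 difference of -1.16 ± 0.36 with no overlap. The A537T libraries had 78.0, 101 and 98.3 RPM without TRAMP and 32.2, 69.7 and 63.8 RPM with TRAMP, a log2 difference of -0.80 ± 0.36, also with no overlap. The WT libraries had 106, 52.1 and 26.6 RPM without TRAMP and 41.6, 30.4 and 41.7 RPM with TRAMP, and they overlapped, with a log2 difference of -0.49 ± 0.58. Whether the lines differed in this respect was not tested. The miR-466 family had the largest log2 difference, at -1.31 ± 0.27, against -0.73 ± 0.20 for miR-467, -0.67 ± 0.29 for miR-669 and -0.42 ± 0.28 for miR-297. The 9 members encoded only outside Sfmbt2 summed to 0.485 to 1.53 RPM without TRAMP and to 0.243 to 0.782 RPM with TRAMP, with medians of 0.879 RPM and 0.660 RPM.

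**Figure D3:**
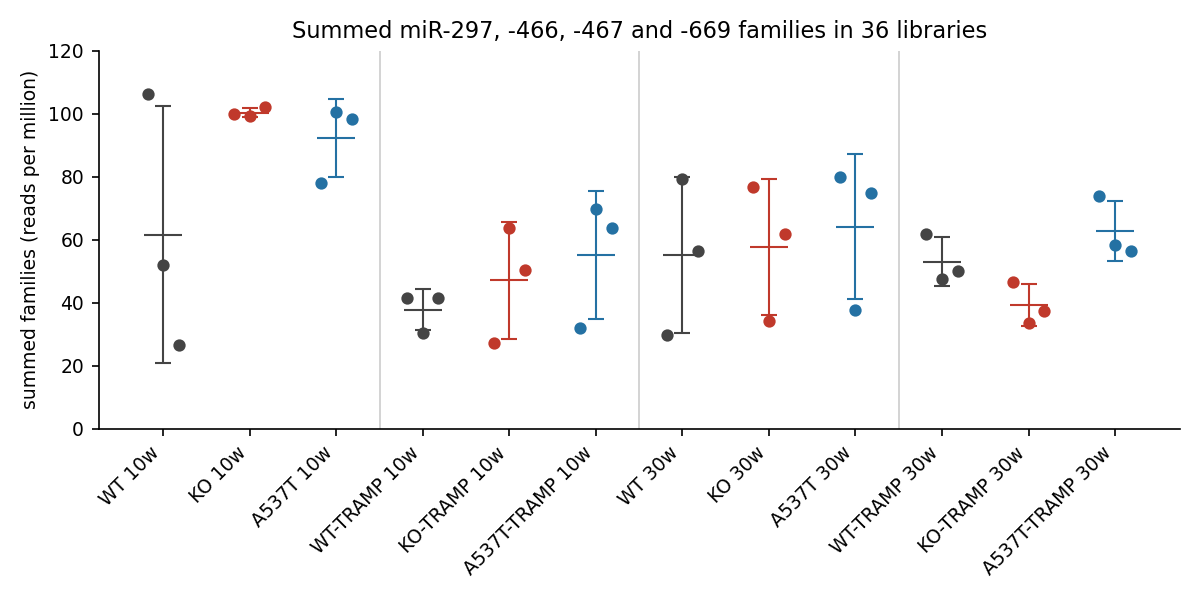
Points give the summed level of the 4 families in RPM in each of the 36 libraries, with the group mean (horizontal line) and SD (bars) of 3 libraries per group. The KO and A537T libraries of 10 weeks without TRAMP sit between 78.0 and 102 RPM, above all 9 TRAMP libraries of that age, while the WT libraries of that age spread from 26.6 to 106 RPM.

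Of the 13 tested members, 7 fell in TRAMP prostate at 10 weeks and 0 rose (limma, Benjamini-Hochberg adjusted over 514 miRNAs). Among all 514 miRNAs 65.4% passed the same test, 39.9% as lower and 25.5% as higher. All 13 members had negative log2 differences, with a median of -0.60 against a median of -0.28 over all 514 miRNAs. For none of the 13 did the 9 libraries lie wholly below the other 9, which 5.06% of all miRNAs did. Leaving out WT library 30, the lowest of its group, raised the count of members that fell from 7 to 11. With the level of stromal miRNAs as a covariate, an alternative chosen after seeing the data, it dropped to 3. The shares of all miRNAs that passed in these refits are not given here.

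The 3p members of the miR-466 family had the smallest p-values. The level of miR-466bcp-3p, which is encoded by 11 loci, was 0.701, 3.52 and 4.35 RPM (lowest, median and highest of 9 libraries) without TRAMP and 0.255, 0.761 and 1.31 RPM with TRAMP. Only WT library 30 was as low as the TRAMP libraries. On the log2(RPM + 1) scale, on which changes at low levels are understated, it fell by 1.14 ± 0.18 (SE, limma adjusted p = 5.38e-06). The level of miR-466f-3p was 1.17, 2.47 and 3.52 RPM without TRAMP and 0.128, 0.477 and 1.90 RPM with TRAMP. It fell by 1.05 ± 0.16 (limma adjusted p = 3.61e-06). Its lowest level with TRAMP stood for 1 read, in KO-TRAMP library 7. Of the TRAMP libraries, KO-TRAMP library 8, at 1.90 RPM, and A537T-TRAMP library 6, at 1.38 RPM, were above the lowest library without TRAMP. With 1144 reads in all, miR-466d-3p fell by 0.94 ± 0.25 (limma adjusted p = 0.00185).

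The miR-669 and miR-467 members that fell were those with many loci. The level of miR-669ao-3p, which is named for 13 loci, was 1.52, 10.7 and 15.2 RPM without TRAMP and 1.46, 3.05 and 5.42 RPM with TRAMP. Again library 30 was the only library without TRAMP within the range of the TRAMP libraries. It fell by 1.29 ± 0.30 (limma adjusted p = 0.000492), the largest difference among the 13. Its nearest counterpart on the 5′ arm, miR-669pa-5p, a merged row that shares 12 hairpins with it but also holds those of miR-669p and lacks that of miR-669o, fell by 0.60 ± 0.17 (limma adjusted p = 0.00400). Both arms of miR-467a fell, miR-467a-5p by 0.81 ± 0.23 (limma adjusted p = 0.00324) and miR-467a-3p by 0.79 ± 0.22 (limma adjusted p = 0.00311). The 6 members that did not pass had log2 differences from -0.43 to -0.17. Among them was miR-669c-5p, whose level was 4.33, 24.1 and 27.7 RPM without TRAMP and 7.00, 15 and 28.7 RPM with TRAMP, a log2 difference of -0.43 ± 0.26 (limma adjusted p = 0.156).

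**Figure D4:**
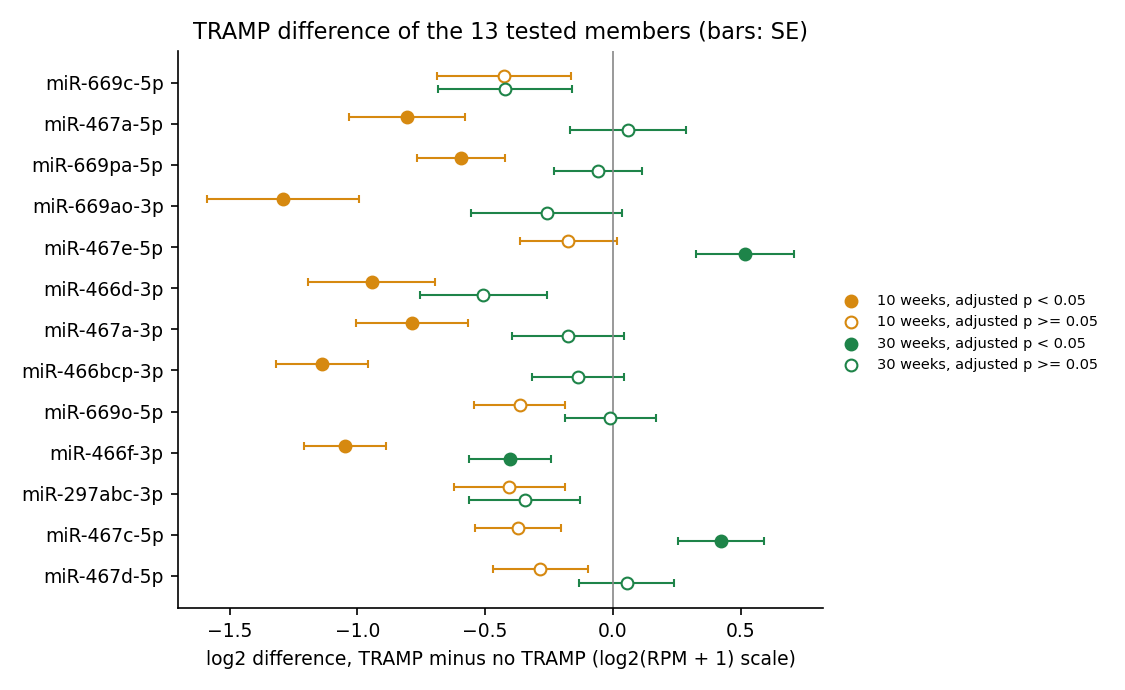
Points give the log2 difference, TRAMP minus no TRAMP, of the 13 tested members on the log2(RPM + 1) scale at 10 weeks (orange) and at 30 weeks (green), with bars for the SE and filled points for a limma adjusted p under 0.05. At 10 weeks all 13 lie below 0 and 7 are filled, and at 30 weeks the points lie near 0 with 1 filled below it and 2 above.

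The fall at 10 weeks was uneven between arms, a pattern noticed after the values were seen and given without a test. Of the 6 tested 3p members 5 fell, with a median log2 difference of -0.995, and of the 7 tested 5p members 2 fell, with a median of -0.37. Over all miRNAs the arms were alike, with 162 of 243 3p miRNAs and 148 of 232 5p miRNAs passing the test and median differences of -0.37 and -0.32. The 3p members took 16.9% to 35.5% of the family reads without TRAMP (median 31.6%) and 14% to 24.3% with TRAMP (median 20.1%). WT library 30, at 16.9%, was again the lowest of its block, and the next lowest without TRAMP, library 35, had 25.8%, above all the TRAMP libraries. The ratio of miR-669ao-3p to miR-669pa-5p, which do not come from wholly the same hairpins, had a median of 1.21 (range 0.542 to 1.52) without TRAMP and of 0.625 (range 0.286 to 1.00) with TRAMP. For the arms of miR-467a the median ratio of 3p to 5p was 0.268 and 0.192. On the log2(RPM + 1) scale these arms, which share all their loci, fell by 0.81 (5p) and 0.79 (3p). All 3 tested miR-466 members, of the family with the largest fall, are 3p members. Arm and family therefore overlap among the tested members, and their parts in the pattern were not tested.

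At 30 weeks the summed families of TRAMP and non-TRAMP prostate overlapped widely. The 9 libraries without TRAMP ran from 29.9 RPM through 62.0 RPM to 79.8 RPM, and those with TRAMP from 33.8 RPM through 49.9 RPM to 73.8 RPM. The log2 difference was -0.14 ± 0.22, a fold of 0.910. The differences of the family sums were -0.30 ± 0.21 for miR-466, -0.28 ± 0.22 for miR-669, -0.08 ± 0.15 for miR-297 and 0.20 ± 0.25 for miR-467. By line the differences of the summed families were 0.04 in WT, 0.03 in A537T and -0.48 in KO, each with overlapping libraries.

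Of the 13 members, 2 rose and 1 fell in TRAMP prostate at 30 weeks, where 45.1% of all miRNAs passed the test, 28.8% as higher and 16.3% as lower. The share of calls that were higher was 63.8% over all miRNAs with the library sum as the scale, 50.4% with median-of-ratios scaling and 54.7% with TMM scaling. The level of miR-467e-5p was 0.866, 2.43 and 3.89 RPM (lowest, median and highest) without TRAMP and 2.46, 3.46 and 5.64 RPM with TRAMP. It rose by 0.52 ± 0.19 (limma adjusted p = 0.0278). The level of miR-467c-5p was 0.352, 0.823 and 1.46 RPM without TRAMP and 1.04, 1.57 and 1.78 RPM with TRAMP. It rose by 0.42 ± 0.17 (limma adjusted p = 0.0409). Its TRAMP libraries lay above the others within each of the 3 lines, and how many of all miRNAs did so is not given here. At 0.974, 1.61 and 2.41 RPM without TRAMP and 0.325, 1.15 and 1.32 RPM with TRAMP, miR-466f-3p fell by 0.40 ± 0.16 (limma adjusted p = 0.0408).

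These 3 calls were close to the threshold. The count dropped to 0 without A537T-TRAMP library 13, and to 1 without any of the libraries 10, 11, 14, 15, 17, 18, 19 or 26. It was 0 with no filter on low miRNAs and 6 with the Wald test of DESeq2 on whole reads. With DESeq2 267 of all 514 miRNAs passed, and the share with no filter is not given here.

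The TRAMP difference at 30 weeks was then set against that at 10 weeks in the same fit. For 5 of the 13 members it was higher at 30 weeks and for 0 it was lower, where 37.2% of all miRNAs passed, 28.2% as higher and 8.95% as lower. The largest of the 5 was in miR-466bcp-3p, by 1.00 ± 0.25 (limma adjusted p = 0.00369). It was followed by miR-467a-5p at 0.86 ± 0.32 (limma adjusted p = 0.0369), miR-467c-5p at 0.79 ± 0.24 (limma adjusted p = 0.0122), miR-467e-5p at 0.69 ± 0.27 (limma adjusted p = 0.0447) and miR-466f-3p at 0.64 ± 0.23 (limma adjusted p = 0.0290). The median over the 13 was 0.61 against 0.29 over all miRNAs. For miR-669c-5p the difference of differences was 0.0035 ± 0.37, so that its TRAMP difference had nearly the same value at both ages.

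The scale of the libraries moved these values. The median of all miRNAs in this comparison was 0.29 with the library sum, 0.01 with median-of-ratios scaling, 0.11 with TMM scaling and 0.42 with the library sum less the muscle miRNAs, and the median of the 13 members was 0.61, 0.40, 0.46 and 0.70. The share of all calls that were higher was 75.9%, 48.2%, 56.4% and 86.1%. All 13 members were positive with the library sum and 11 with median-of-ratios scaling. The count of 5 became 2 with median-of-ratios or TMM scaling, 2 with edgeR and 1 with DESeq2. Of all 514 miRNAs 193, 181, 192 and 208 passed in these 4 fits, against 191 in the main fit. The member count became 8 without WT library 30. It became 2 without any of the libraries 4, 7, 19, 28 or 33. It became 3 without any of 1, 2, 10, 13, 18, 23 or 26. In the 10-week comparison the same 4 scales gave medians of -0.28, -0.13, -0.20 and -0.41 for all miRNAs and -0.60, -0.42, -0.48 and -0.73 for the members, and all 13 members stayed negative.

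The age comparisons used the same 36 libraries, so their values are not independent of those for TRAMP. Without TRAMP, the summed families were lower at 30 weeks than at 10 weeks by a log2 difference of -0.50 ± 0.28, a fold of 0.708, and with TRAMP they were higher by 0.18 ± 0.19, a fold of 1.13. Both pairs of blocks overlapped. Without TRAMP 1 of the 13 members fell and 0 rose, where 33.5% of all miRNAs passed, 20.6% as lower. This was miR-467e-5p, which went from a median of 4.06 RPM at 10 weeks to 2.43 RPM at 30 weeks and fell by 0.62 ± 0.19 (limma adjusted p = 0.0126). All 13 members had negative differences with the library sum and 12 with median-of-ratios or TMM scaling. The 1 call was lost with DESeq2, with which 233 of all 514 miRNAs passed. The count was 7 without WT library 30, and 3 without library 7, 16, 20 or 22, or 2 without library 8, 9, 25, 27, 31, 34 or 36. The share of calls over all miRNAs that were higher was 38.4%, against 57.5% with median-of-ratios scaling, 48.7% with TMM and 18.9% without the muscle reads.

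With TRAMP 1 of the 13 members rose from 10 to 30 weeks and 0 fell, where 27.4% of all miRNAs passed, 20.2% as higher and 7.2% as lower. The level of miR-466bcp-3p went from a median of 0.761 RPM to 1.68 RPM, with the lowest of the 9 libraries going from 0.255 to 0.892 RPM. It rose by 0.62 ± 0.18 (limma adjusted p = 0.0120). The miR-466 family sum differed by 0.51 ± 0.21, miR-467 by 0.43 ± 0.18, miR-297 by 0.23 ± 0.12 and miR-669 by -0.10 ± 0.19. A log2 difference of -0.55 ± 0.26 was found for miR-669c-5p (limma adjusted p = 0.115), and its share of the family reads had a median of 29.5% at 10 weeks and 18.8% at 30 weeks. The count was 2 without library 4, 9, 26 or 35. The share of calls over all miRNAs that were higher was 73.8%, against 54.4% with median-of-ratios scaling and 55.4% with TMM.

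The remaining comparisons asked whether the families differed between each Elac2 mutant line and the WT controls of the same age and TRAMP status. KO and A537T were compared with the same control libraries. None of the 13 members passed in any of these 8 comparisons with limma, nor with the quasi-likelihood test of edgeR or the Wald test of DESeq2 on whole reads. Over the 8 comparisons 0 to 50 of all 514 miRNAs passed with edgeR and 0 to 65 with DESeq2. At 10 weeks without TRAMP, all 13 members had positive differences in KO, with a median of 0.72 against 0.18 over all miRNAs, of which 3.89% passed, 0.584% as higher and 3.31% as lower. At an unadjusted p under 0.05 there were 5 members with limma, 1 with edgeR and 2 with DESeq2, and 103, 94 and 107 of all 514 miRNAs. The libraries of 3 members, miR-467a-3p, miR-669c-5p and miR-467e-5p, lay above all WT libraries, as did those of 15.4% of all miRNAs. The summed families were 99.9, 99.3 and 102 RPM in KO and 106, 52.1 and 26.6 RPM in WT, a log2 difference of 0.91 ± 0.57 with overlap.

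The smallest p in this comparison was that of miR-467a-3p, at 3.45, 3.62 and 4.26 RPM in KO and 2.78, 1.29 and 0.292 RPM in WT. The log2 difference was 1.09 ± 0.38 (limma adjusted p = 0.107). The spread of the WT libraries was wide. Without library 28, the highest of the WT group, 7 members passed, and without library 30, the lowest, the limma adjusted p of miR-467a-3p was 0.996. How many of all miRNAs passed without library 28 is not given here, so the 7 cannot be read as particular to the families. The WT libraries 28, 29 and 30 also held 9.71%, 19% and 30.6% of skeletal muscle miRNAs, against 0.772%, 6.49% and 0.734% in the KO libraries, and 30.4%, 15.5% and 7.21% of stromal miRNAs, against 36%, 30.5% and 36.1%. With the stromal level as a covariate 0 members passed, and the difference of miR-467a-3p was 0.76 (limma adjusted p = 0.358). With the muscle reads left out of the library sum all 13 differences stayed positive, with a median of 0.49.

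For A537T at 10 weeks without TRAMP, 12 of the 13 differences were positive, with a median of 0.60 against 0.12 over all miRNAs, of which 0.195% passed. At an unadjusted p under 0.05 there were 3 members with limma, 1 with edgeR and 2 with DESeq2, and 38, 41 and 45 of all 514 miRNAs. The summed families had 78.0, 101 and 98.3 RPM in A537T, a log2 difference from WT of 0.78 ± 0.58 with overlap. The libraries of miR-467c-5p and miR-466f-3p lay above those of WT, as did those of 2.14% of all miRNAs. The level of miR-467c-5p was 1.52, 6.10 and 2.16 RPM in A537T and 1.25, 0.840 and 0.701 RPM in WT, a log2 difference of 1.00 ± 0.29 (limma adjusted p = 0.246). Its highest value was that of the shallow library 35, where 6.10 RPM stood for 4 reads. Without library 34, 1 member passed.

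At 30 weeks without TRAMP the mutant and WT libraries of the summed families overlapped. They were 76.7, 34.3 and 62.0 RPM in KO, 79.8, 37.9 and 74.9 RPM in A537T and 29.9, 79.4 and 56.3 RPM in WT, with log2 differences of 0.09 ± 0.53 and 0.25 ± 0.53. In each group the lowest library lay far below the next, at 34.3 RPM in KO, 37.9 RPM in A537T and 29.9 RPM in WT. At an unadjusted p under 0.05 there were 0 members in KO with limma, 1 with edgeR and 1 with DESeq2, and 87, 109 and 120 of all 514 miRNAs. In A537T there were 0 members with each tool, and 43, 73 and 76 of all 514 miRNAs. After adjustment 0.584% of all miRNAs passed with limma in KO and 0.0% in A537T, where DESeq2 gave no adjusted p for 9 members. The smallest p in both belonged to miR-467c-5p, at 1.35, 0.823 and 1.32 RPM in KO, 1.46, 0.361 and 1.16 RPM in A537T and 0.352, 0.688 and 0.659 RPM in WT. The KO libraries lay above those of WT, as they did for 3.89% of all miRNAs, and the A537T libraries overlapped with them. The log2 differences were 0.46 ± 0.29 in KO (limma adjusted p = 0.462) and 0.31 ± 0.29 in A537T (limma adjusted p = 0.702).

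In TRAMP prostate at 10 weeks the summed families were 27.2, 63.8 and 50.3 RPM in KO-TRAMP, 32.2, 69.7 and 63.8 RPM in A537T-TRAMP and 41.6, 30.4 and 41.7 RPM in WT-TRAMP. The log2 differences from WT-TRAMP were 0.24 ± 0.39 and 0.47 ± 0.38, with overlap in both. In KO-TRAMP at an unadjusted p under 0.05 there were 0 members with limma, 2 with edgeR and 2 with DESeq2, with 26, 17 and 22 of all 514 miRNAs. In A537T-TRAMP there were 0, 3 and 1 members, with 34, 20 and 21 of all 514 miRNAs. After adjustment 0.0% of all miRNAs passed with limma in either. The smallest p belonged to miR-467c-5p in KO-TRAMP, with a log2 difference of 0.46 (limma adjusted p = 0.871). In A537T-TRAMP it belonged to miR-467a-5p, at 4.72, 8.24 and 8.22 RPM against 3.30, 3.77 and 4.96 RPM in WT-TRAMP, a log2 difference of 0.67 ± 0.39 (limma adjusted p = 0.748).

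In TRAMP prostate at 30 weeks the KO-TRAMP group was the lowest of the 3 lines. Their summed families were 46.6, 33.8 and 37.5 RPM, against 62.0, 47.4 and 49.9 RPM in WT-TRAMP, a log2 difference of -0.43 ± 0.18 with no overlap. The miR-669 sum differed by -0.58 ± 0.17, also without overlap. Of the 13 members 11 had negative differences, with a median of -0.26 against 0.10 over all miRNAs, of which 6.23% passed with limma, 4.86% as higher and 1.36% as lower. At an unadjusted p under 0.05 there were 0 members with limma, 2 with edgeR and 1 with DESeq2, and 104, 123 and 124 of all 514 miRNAs. The level of miR-669c-5p was 6.22, 6.33 and 5.44 RPM in KO-TRAMP and 13.3, 9.50 and 11.5 RPM in WT-TRAMP, and these groups did not overlap. The log2 difference was -0.82 ± 0.45 (limma adjusted p = 0.313), and over the alternatives the adjusted p ran from 0.0524 to 0.635. Together with miR-669pa-5p it was 1 of 2 members whose KO-TRAMP libraries lay below the WT-TRAMP libraries, as did those of 7.59% of all miRNAs.

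The A537T-TRAMP libraries of 30 weeks had 73.8, 58.3 and 56.5 RPM of the summed families, a log2 difference from WT-TRAMP of 0.24 ± 0.17 with overlap. At an unadjusted p under 0.05 there were 0 members with each of limma, edgeR and DESeq2, and 38, 63 and 70 of all 514 miRNAs. After adjustment 0.0% of all miRNAs passed with limma. The libraries of miR-467c-5p, miR-466bcp-3p and miR-669ao-3p lay above those of WT-TRAMP, as did those of 15.2% of all miRNAs. The smallest p was that of miR-466d-3p, at 2.90, 1.65 and 2.31 RPM against 2.07, 0.957 and 0.797 RPM, with a log2 difference of 0.56 ± 0.43 (limma adjusted p = 0.744). The differences of the mutants with and without TRAMP at 30 weeks were also set against each other. For KO 0 members passed with any tool, where 7.98% of all miRNAs passed with limma, 7.2% as higher and 0.778% as lower. With edgeR 74 of all 514 miRNAs passed and with DESeq2 84. At an unadjusted p under 0.05 there were 0 members with limma, 2 with edgeR and 2 with DESeq2, and 124, 144 and 138 of all 514 miRNAs. The median of the members was -0.47 against 0.24 over all miRNAs, and the smallest p was that of miR-467d-5p, at -0.60 (limma adjusted p = 0.495). For A537T 0 members passed with any tool, where 0.0% of all miRNAs passed with limma and 0 passed with edgeR or DESeq2. With no adjustment, p was under 0.05 for 0 members with each tool and for 22, 54 and 67 of all 514 miRNAs, and the smallest p was that of miR-466d-3p, at 0.56 (limma adjusted p = 0.866).

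Across libraries, the summed families moved with miRNAs of the stroma. The 5 stromal and smooth muscle miRNAs, miR-143-3p, miR-145a-5p, miR-199ab-3p, miR-199a-5p and miR-214-3p, were read in every library. Most of their sum was miR-143-3p, at 53618 to 372576 RPM. The highest levels of the others were 21889, 9687, 2839 and 198 RPM, in the order listed. The stromal sum, and the values and covariate made from it, therefore follow mainly miR-143-3p. At 10 weeks the 5 miRNAs summed to 7.21%, 30.4% and 40.2% of reads (lowest, median and highest of 9 libraries) without TRAMP and to 7.59%, 11.4% and 22.8% with TRAMP. At 30 weeks they summed to 12.9%, 24.4% and 29.8% without TRAMP and to 6.36%, 14.3% and 34.4% with TRAMP. All 5 fell in TRAMP prostate at 10 weeks (limma), with a median log2 difference of -0.71, and 1 fell at 30 weeks. Over all 514 miRNAs 39.9% fell and 25.5% rose at 10 weeks, and 16.3% fell at 30 weeks. Of the 8 epithelial miRNAs 6 rose and 1 fell at 10 weeks. Markers of other cells also moved with TRAMP at 10 weeks. The endothelial miRNAs miR-126a-3p and miR-126a-5p both fell, and their sum was 12421 to 18603 RPM without TRAMP and 4932 to 11063 RPM with TRAMP. Of 3 red cell miRNAs 2 fell, and their sum was 1051 to 1929 RPM without TRAMP and 137 to 615 RPM with TRAMP. Neither sum overlapped between the blocks, unlike that of the stromal miRNAs, and their part in the results was not tested. Of 5 miRNAs of white blood cells 3 fell and 2 rose, and their sums overlapped, at 236 to 462 RPM and 275 to 731 RPM.

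On a log2 scale, Pearson's r between the summed families and the summed stromal miRNAs was 0.74 over the 36 libraries and Spearman's rho was 0.76. Without the 2 libraries farthest from the median of the stromal level these were 0.73 and 0.75. The points share the scale of the library, since both are parts of the same total, and blocks of age and TRAMP. Within the 9 libraries of a block, r was 0.96 at 10 weeks without TRAMP (rho 0.57), 0.98 at 10 weeks with TRAMP (rho 0.95), 0.95 at 30 weeks without TRAMP (rho 0.77) and -0.29 at 30 weeks with TRAMP (rho -0.18). In the last block the KO-TRAMP libraries stood apart, with stromal miRNAs at 6.36%, 34.4% and 24.7% beside families at 46.6, 33.8 and 37.5 RPM. With the summed epithelial miRNAs r was -0.66 and rho -0.64 over all 36.

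The library lowest in the families was also the lowest in stromal miRNAs in 10 of the 12 groups, and the highest was the highest in 9. In the TRAMP comparison at 10 weeks with the stromal level as a covariate, miR-669ao-3p, miR-466bcp-3p and miR-466f-3p still passed. The values of the other 4 were then -0.46 for miR-466d-3p (limma adjusted p = 0.111), -0.39 for miR-467a-5p (limma adjusted p = 0.142), -0.52 for miR-467a-3p (limma adjusted p = 0.0772) and -0.31 for miR-669pa-5p (limma adjusted p = 0.142). With the same covariate the count was 2 for TRAMP at 30 weeks, where miR-467e-5p and miR-467c-5p still passed, 3 for the TRAMP difference between ages and 0 in the 8 mutant comparisons. The value of miR-669c-5p in KO-TRAMP at 30 weeks was then -1.02 (limma adjusted p = 0.0524).

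**Figure D5:**
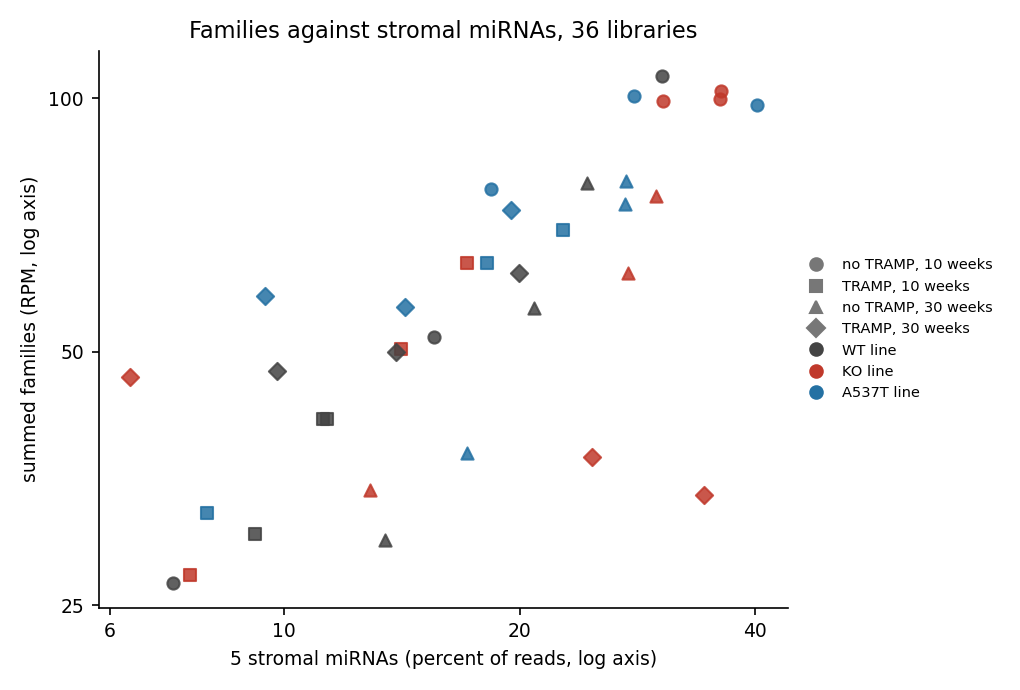
Each point is 1 of 36 libraries, with the summed stromal miRNAs in percent of reads on the x axis and the summed families in RPM on the y axis, both logarithmic, coloured by line and shaped by age and TRAMP. Most points rise together, but not those of the 30-week TRAMP block, and of the 3 KO-TRAMP libraries of 30 weeks the library with 34.4% stromal miRNAs has the lowest families of its group at 33.8 RPM.

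Among the 501 tested miRNAs outside the families, those whose levels were most like the summed families over the 36 libraries were miR-145a-5p (Spearman's rho 0.83), miR-99a-3p (0.82), miR-143-5p (0.82), miR-125b-2-3p (0.81) and miR-671-5p (0.81). The miRNAs miR-143 and miR-145 are known as products of smooth muscle. These values are descriptions over libraries that share scale and blocks. The most opposed was miR-1198-5p, with a rho of -0.88.

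Another large imprinted miRNA cluster of the mouse, Dlk1-Dio3 on chromosome 12, was listed for comparison. Of its 100 listed miRNAs 57 were tested. In TRAMP prostate at 10 weeks 51 of these fell and 0 rose, with a median of -0.92, against 7 of 13 and -0.60 for the Sfmbt2 families. At 30 weeks 4 fell and 3 rose, with a median of -0.16. Without TRAMP 53 of the 57 fell from 10 to 30 weeks, with a median of -1.14, where 1 of the 13 members of the Sfmbt2 families did, with a median of -0.38. Over all 514 miRNAs 39.9% fell in TRAMP prostate at 10 weeks, and 20.6% fell from 10 to 30 weeks without TRAMP. In KO-TRAMP at 30 weeks the median of the Dlk1-Dio3 miRNAs was 0.58 with 4 that rose, against -0.26 for the 13 members. Of the 18 listed miRNAs of the early embryonic cluster that starts with miR-290, 0 reached a mean of 1 RPM. Their sum was at most 0.317 RPM, and it was 0 in 26 of the 36 libraries.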

How the data were processed

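Per the labels, small RNA libraries of prostate were made with a TruSeq small RNA kit. Per the authors' methods they were read on a NovaSeq, read pairs were merged with BBMerge, miRNAs were counted with mirDeep2 against GRCm38 and miRBase, and rows of identical mature sequence were summed. The authors deposited 8 tables, each with the 6 libraries of 1 comparison, whose values are a signal: reads per miRNA divided by the DESeq2 size factor of the library. Their 8 tables of shrunken log2 fold changes and s-values, and their lists of merged names, were not used. Whole reads were recovered by dividing by the value of 1 read, and 100% of 94224 values were whole within 0.01. Columns carry a library number and no replicate number, and the group of each library rests on the name of its table. Columns that matched no group numbered 0.

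Each library was scaled to its own sum (RPM). The main test was limma 3.58.1 with a variance trend in R 4.3.3 on log2(RPM + 1), with 12 group means over 36 libraries, for miRNAs with a mean of at least 1 RPM, in both directions, with Benjamini-Hochberg adjustment over 514 miRNAs and a threshold of 0.05. TRAMP and age contrasts average over the 3 lines and set side by side tables that had been normalised separately by the authors, after rescaling. Family sums are values with a standard error and no p. Alternatives were median-of-ratios and TMM scaling, library sums without skeletal muscle miRNAs, pseudocounts of 0.25 and 5, no filter or a mean of 10 RPM, no variance trend, only the 6 libraries of a comparison, leaving out each library, and edgeR 4.0.16 or DESeq2 1.42.0 on whole reads. Chosen after seeing the data were a stromal covariate, leaving out 6 libraries rich in muscle miRNAs, and 2 other ways to form the sums. The 6 were libraries 28, 29, 30, 32, 34 and 35, among them every WT library of 10 weeks without TRAMP. That fit therefore averaged KO and A537T only. Library 36 was the sole A537T library left in that block, so the member counts of that fit are not given. On simulated reads with 200 of 514 miRNAs changed 4-fold, limma recovered 82.0% to 89.5% in the mutant comparisons and 97.0% to 99.0% in the TRAMP and age comparisons, and 73.5% to 92.5% in the 3 interactions. There were 1 to 11 false calls per comparison. Only 2 to 7 of the changed miRNAs were family members, so the rates do not give the power for the members or for smaller changes. The 50 most abundant miRNAs were left unchanged in the simulation so that the library sums did not move. The rates therefore do not cover shifts of scale such as those between these libraries.

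Named were the members of highest mean RPM, the members that passed in a contrast or else that with the smallest p, miR-669c-5p, which the study's text names, and the 5 miRNAs most like the sums. The members and lists were chosen with earlier results of these data known. The merged row of miR-466e-3p and miR-466a-3p, with 160 reads, falls outside the rule by its spelling. Hairpin loci came from GENCODE M21 by name. Depth ran from 655455 to 21870210 reads per library, and 1 read stood for 1.53 RPM in the shallowest.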

Additional observations from a re-analysis of the deposited data

Results flagged for a closer look

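A test of whether the TRAMP difference differed between ages was passed by 37.2% of all 514 miRNAs, 28.2% as higher and 8.95% as lower. For 5 of the 13 tested members the TRAMP difference was higher at 30 weeks than at 10 weeks. These differences of differences on the log2(RPM + 1) scale were 1.00 ± 0.25 for miR-466bcp-3p (limma adjusted p = 0.00369), 0.86 ± 0.32 for miR-467a-5p (limma adjusted p = 0.0369), 0.79 ± 0.24 for miR-467c-5p (limma adjusted p = 0.0122), 0.69 ± 0.27 for miR-467e-5p (limma adjusted p = 0.0447) and 0.64 ± 0.23 for miR-466f-3p (limma adjusted p = 0.0290). Under 47 alternatives, miR-466bcp-3p passed in 47, miR-467c-5p in 45, miR-466f-3p in 36, miR-467a-5p in 27 and miR-467e-5p in 20, all with the same sign. Of the 47 alternatives, 36 only left out 1 library each.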

How the results depend on the processing

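The member counts depended on the setting as follows, and the cause was not tested unless stated. With a mean of at least 10 RPM, 1 member was left to test, and the counts were 0 for TRAMP at 10 weeks (from 7), TRAMP at 30 weeks (from 3), age without TRAMP (from 1), age with TRAMP (from 1) and the TRAMP difference between ages (from 5). With the stromal covariate the counts were 3 for TRAMP at 10 weeks, 2 for age with TRAMP and 3 between ages. TRAMP at 30 weeks gave 0 with no filter and 6 with DESeq2. Age without TRAMP gave 6 without muscle reads, 3 with a pseudocount of 5, 2 with 0.25, 2 without a trend and 0 with DESeq2. Age with TRAMP gave 2 with median-of-ratios, TMM, edgeR and DESeq2. Between ages the count was 2 with median-of-ratios, TMM, no filter and edgeR, and 1 with DESeq2. Leaving out each library gave 0 to 7 for KO at 10 weeks, 0 to 1 for A537T at 10 weeks, 7 to 11 for TRAMP at 10 weeks, 0 to 3 for TRAMP at 30 weeks, 1 to 7 for age without TRAMP, 1 to 2 for age with TRAMP and 2 to 8 between ages. In the other 6 mutant comparisons, and in both comparisons of a mutant difference with and without TRAMP, it stayed 0. The shares of all miRNAs that passed without 1 library or in the other settings are not given in this paragraph, so these counts are not results about the members alone. No called result changed direction. Without 1 library, the summed-family difference ran from -0.29 to 0.42 for KO at 30 weeks, from -0.13 to 0.58 for A537T at 30 weeks and from -0.02 to 0.58 for KO-TRAMP at 10 weeks, and so took either sign. For the 27 named results, each a member in a contrast, 1156 of 1260 alternatives kept the side of the threshold, 102 lost it and 2 gained it. For each result 36 of the alternatives only left out 1 library. Some of the 27 had not passed in the main fit, and these kept their side by not passing again. The summed families at 10 weeks kept a TRAMP difference between -0.98 and -0.65 without any 1 library. No paired analysis was possible because the columns carry none of the replicate numbers of the labels. Low reads limit these results, since most members lay below 1 RPM.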
